A study of Homo sapiens with 72 samples.

Results

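The interferon regulatory factor 2 binding protein (IRF2BP) family was followed at the mRNA level in A375 cells, an established human melanoma line. Its 3 members, IRF2BP1, IRF2BP2 and IRF2BPL, were taken by name as 3 of the 44659 genes of the count table. They were chosen by their measured decay under triptolide and their retention under cycloheximide in these same libraries. Decay and retention are therefore described here without a test, and tests were made only at 0 h. Cytoplasmic RNA was sequenced in 72 QuantSeq libraries, which read the 3′ end of polyadenylated RNA, so that a count does not grow with transcript length. In 1 experiment, cells were transfected for 42 h with a pool of 2 siRNAs against CTU2 (siCTU2) or with the control siRNA GL2 (siGL2). In the other, the medium either lacked glutamine (mQ) or contained it (pQ) during the preceding 18 h. All groups then received 25 µM triptolide, which blocks transcription, alone (T arm) or with 100 µg/ml cycloheximide, which blocks translation (TCHX arm), and were harvested at 0, 3 or 5 h. This gave 24 groups of 3 replicates. All libraries came from 1 cell line, and no group was free of triptolide.

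IRF2BP proteins are nuclear cofactors of transcription. They carry a zinc finger near the amino terminus, through which they associate, and a RING finger near the carboxyl terminus. IRF2BP1 and IRF2BP2 were found as corepressors of IRF2. IRF2BP2 also restrains NFAT factors and works with VGLL4 on TEAD4 targets, and a RING-dependent ubiquitin ligase activity has been described for IRF2BP1 and IRF2BPL. CTU2 is a subunit of the enzyme that thiolates the wobble uridine of tRNAs that read AAA, CAA and GAA codons, and glutamine is the residue read by CAA and CAG.

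The gene structures of the family are compact. IRF2BP1 (chr19:45883608-45886141) and IRF2BPL (chr14:77024543-77028708) each consist of 1 exon and IRF2BP2 (chr1:234604269-234610178) of 2, all on the minus strand (GENCODE v44 canonical transcripts, GRCh38). Only 5.52% of 19679 coding genes had a single exon. The coding sequences held 584, 587 and 796 codons for IRF2BP1, IRF2BP2 and IRF2BPL. Codons that end in A or T made up 21.7, 21.6 and 20.9% of them, below the median gene (39.1%). The codons AAA, CAA and GAA together made up 3.25, 3.58 and 3.02%, also below the median gene (5.66%). Aspartate and glutamate codons made up 10.3, 8.52 and 8.17% against 11.4% in the median gene. IRF2BPL stood out in glutamine codons (6.41%, a higher share than in 86.8% of genes), while IRF2BP1 (4.11%) and IRF2BP2 (4.60%) lay close to the median of 4.39%. A run of 25 glutamine codons, codons 103 to 127, accounted for 25 of the 51 glutamine codons of IRF2BPL. Only 10 coding genes had a longer run. It is shown because both treatments concern glutamine or its codons, with the CAA codons in capitals (6 CAA and 19 CAG, chr14:77027412-77027486, minus strand):
IRF2BPL run of glutamine codons: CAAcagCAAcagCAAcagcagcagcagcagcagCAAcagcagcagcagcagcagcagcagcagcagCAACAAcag

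The 3′ untranslated regions measured 412 bases in IRF2BP1, 2868 in IRF2BP2 and 859 in IRF2BPL, against a median of 1064. AU-rich elements are the best known mark of short-lived mRNAs, and their core is the pentamer ATTTA in DNA letters. It was searched on the transcript strand, counting overlaps, and occurred 1 time in IRF2BP1, 8 times in IRF2BP2 and 1 time in IRF2BPL. At least 1 match was present in 67.5% of 19550 3′ untranslated regions. Within the last 400 bases, IRF2BP1 had 1 match, IRF2BP2 had 4 and IRF2BPL had 0, and 57.8% of 14541 windows of that length held at least 1. The longer elements TATTTAT (31.5% of regions) and TTATTTATT (8.44%) were found in none of the 3 members. The windows below show the pentamers of IRF2BP1 and IRF2BPL and those in the last 400 bases of IRF2BP2, with the pentamer in capitals. A match is only a string of letters and not a shown binding site.
IRF2BP1, chr19:45883666-45883690: aggcaaaagcATTTAattcccaccc
IRF2BP2, chr1:234604602-234604626: gcttttaacaATTTAtagaatttaa
IRF2BP2, chr1:234604593-234604617: aatttatagaATTTAacagatgtac
IRF2BP2, chr1:234604558-234604582: gtggcctcacATTTAaagttatgag
IRF2BP2, chr1:234604318-234604342: catttgtcagATTTAcagtaccttt
IRF2BPL, chr14:77025111-77025135: tatcgttagcATTTAtttggtggca
IRF2BP2 and IRF2BPL each overlap 1 annotated gene on the other strand (ENSG00000228830 and ENSG00000273729). Whether the counting used strand is not given in the sources used here, so reads of these partners could not be set apart.

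Libraries held 5987692 to 15534331 counts. The A375 label was checked with lineage markers, of which SOX10 (25.4 to 424 counts scaled to library totals, CPM), MITF, DCT and S100B were present in all libraries, while MLANA, TYR and TYRP1 were at or below 2.07 CPM. CTU2 was at 1.76 ± 1.04 CPM in siCTU2 and 22.5 ± 1.58 CPM in siGL2 cells at 0 h in the T arm (SD, n = 3; log2 fold change -3.71, edgeR adjusted p = 9.16e-09). There were 3 libraries that stood apart, all replicate 3: pQ TCHX 0 h, mQ T 5 h and 1 that carries the label siCTU2 TCHX 5 h. In them 19896 to 20364 genes were detected, while the remaining 69 libraries detected 15507 to 17495, and 31.1 to 32.6 CPM of the leukocyte gene PTPRC, which reached at most 0.759 CPM elsewhere. The epithelial gene EPCAM (at most 0.456 CPM), PECAM1 (0.789) and ALB (0.368) were near 0 in every library. The collagen gene COL1A1 moved with PTPRC, at 1.60 to 2.57 CPM in the 3 libraries and at most 1.17 CPM in the other 69. The part of these reads in the results was not tested. In the library labelled siCTU2 TCHX 5 h replicate 3, CTU2 was at 10.4 CPM, which goes against its label. In mQ T 5 h replicate 3, the short-lived JUN mRNA was at 25.9 CPM, against 1.18 and 0.225 CPM in replicates 1 and 2. Shares left of IRF2BP2 and IRF2BPL at 5 h, and ratios of the arms for all 3 members, are therefore given for each replicate. No library of the 3 was harvested at 3 h.

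IRF2BP2 and IRF2BPL were abundant and IRF2BP1 was scarce before decay. Over the 24 libraries at 0 h, IRF2BP2 ranged from 84.4 to 118 CPM (median 95.8; 699 to 1728 counts) and IRF2BPL from 89.8 to 166 CPM (median 115; 917 to 2017 counts). These ranges overlapped, and their order within a library varied. IRF2BP1 ranged from 0.778 to 3.14 CPM (median 1.89), which is 8 to 38 counts, so that counting error alone is large for this member. Its range lay wholly below those of the other two. In RNA of a whole culture, fewer cells with an mRNA and less of it per cell cannot be told apart.

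**Figure D1:**
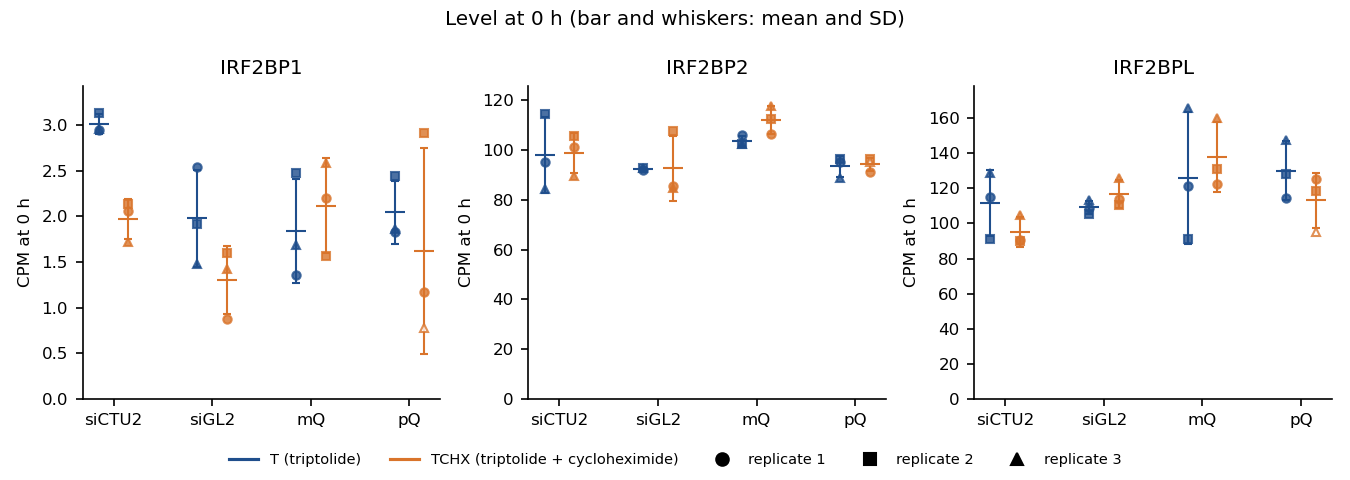
CPM of each member in every 0 h library (vertical axes, linear, from 0) for the 4 conditions, T arm in blue and TCHX arm in orange. Points are replicates, bars and whiskers are mean and SD (n = 3), and the open point is the pQ library with PTPRC reads. IRF2BP2 stays between 84.4 and 118 CPM in all groups, while IRF2BP1 stays at or below 3.14 CPM.

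At 0 h in the T arm, CTU2 depletion moved no member past the threshold (adjusted p under 0.05). In the T arm, IRF2BP2 was at 95.4, 115 and 84.4 CPM in the 3 siCTU2 replicates and at 92.2, 92.6 and 92.9 CPM in the siGL2 replicates. The groups overlapped, the siCTU2 values being more spread (mean 98.1 ± 15.2 CPM with siCTU2 and 92.5 ± 0.347 CPM with siGL2, SD over 3 replicates). The log2 fold change was 0.08 with an SE of 0.10 (edgeR adjusted p = 0.571). IRF2BPL was at 115, 91.3 and 129 CPM in siCTU2 and 109, 106 and 113 CPM in siGL2 cells, again overlapping (log2 fold change 0.03, SE 0.10, edgeR adjusted p = 0.837). For IRF2BP1, the values were 2.95, 3.14 and 2.95 CPM in siCTU2 and 2.54, 1.92 and 1.48 CPM in siGL2 cells. At 12 to 38 counts per library the difference did not pass (log2 fold change 0.60, SE 0.39, edgeR adjusted p = 0.257). By comparison, 36% of the 12292 tested genes passed in either direction. In the TCHX arm at 0 h the value of IRF2BPL changed sign and passed, at 90.8, 89.8 and 105 CPM in siCTU2 against 114, 111 and 126 CPM in siGL2 cells (log2 fold change -0.29, SE 0.09, edgeR adjusted p = 0.0190; 37.2% of genes passed in this arm). The call for IRF2BPL rests on the TCHX arm alone. The labels do not say that replicates came from separate cultures, so these p-values measure the spread between libraries.

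Glutamine withdrawal also gave no call in the T arm. IRF2BP2 was at 106, 102 and 102 CPM in mQ and 95.3, 96.3 and 88.7 CPM in pQ cells. The fold of IRF2BP2 was 1.15 and did not pass (log2 fold change 0.20, SE 0.10, edgeR adjusted p = 0.159; 24.8% of 12374 genes passed). In the TCHX arm without pQ replicate 3, the library with PTPRC reads, the same difference passed (0.29, SE 0.10, edgeR adjusted p = 0.0436; 20.1% of genes passed there). With that library it did not pass (0.27, edgeR adjusted p = 0.136). IRF2BPL was spread widely among the mQ replicates, at 121, 91.04 and 166 CPM against 114, 128 and 148 CPM in pQ cells (log2 fold change 0.0043, SE 0.18, edgeR adjusted p = 0.990). Its mQ values lay on both sides of the pQ values. IRF2BP1 was at 1.36, 2.47 and 1.69 CPM in mQ and 1.82, 2.44 and 1.87 CPM in pQ cells, which also overlapped (-0.08, SE 0.42, edgeR adjusted p = 0.908).

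Between the T and TCHX arms at 0 h no gene passed with edgeR (0% called in siCTU2, siGL2, mQ and pQ). Before adjustment, p was under 0.05 for 1115, 271, 1315 and 342 genes in that order, and DESeq2 called 63, 0, 21 and 0. With the replicate number as a block, 211, 5, 2 and 0 genes passed, none of them a member. IRF2BP2 differed by 0.02, -0.0022, 0.10 and 0.03 on the log2 scale, and IRF2BPL by -0.22, 0.10, 0.11 and -0.19. The smallest unadjusted p among these 8 values was 0.0658, for IRF2BPL in siCTU2 cells. IRF2BP1 differed by -0.59, -0.59, 0.15 and -0.33, with SE between 0.36 and 0.52.

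IRF2BP2 mRNA was lost quickly once transcription was blocked. In siGL2 cells, the T arm held 92.2, 92.6 and 92.9 CPM at 0 h, 20.3, 24.02 and 10.5 CPM at 3 h and 4.67, 8.78 and 5.17 CPM at 5 h. The siCTU2 libraries held 95.4, 115 and 84.4 CPM, then 20.95, 27.4 and 17.2 CPM and 10.03, 12.7 and 6.67 CPM. Every 3 h value lay below every 0 h value, and every 5 h value below every 3 h value within siCTU2 and within siGL2. In pQ cells the level went from 95.3, 96.3 and 88.7 CPM to 22.1, 18.6 and 20.4 CPM and 6.63, 5.96 and 4.72 CPM. In mQ cells it went from 106, 102 and 102 CPM to 15.1, 16.6 and 17.98 CPM and then 3.01, 7.21 and 76.8 CPM. The value of 76.8 CPM belongs to the mQ library with PTPRC reads and JUN at 25.9 CPM, and it lies near the 0 h level rather than near the other 2 replicates.

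CPM are shares of a library and do not show a change of the total mRNA, which was not measured here. Counts were also scaled to genes whose CPM was at least 1.1 times its 0 h value at 3 h or 5 h in every replicate of both arms, called stable genes (197 in the siRNA and 81 in the medium experiment). By this choice of reference, changes lie lower on this scale than in CPM. On that scale, the share of the 0 h level of IRF2BP2 left at 3 h in the T arm was 16.3 ± 2.51% in siCTU2, 15.05 ± 5.87% in siGL2, 10.4 ± 0.469% in mQ and 14.5 ± 1.41% in pQ cells (SD, n = 3). The siGL2 mean rests on 16.9, 19.7 and 8.47%, of which replicate 3 was the lowest. At 5 h, 7.08, 8.64 and 4.03% was left in siCTU2, 3.82, 7.39 and 3.63% in siGL2, 2.11, 4.80 and 54.3% in mQ and 5.57, 4.33 and 3.49% in pQ cells. Apart from mQ replicate 3, all of these were below 9%. Taking 1 exponential from 0 to 3 h, the apparent half-life of IRF2BP2 was 1.15 ± 0.0978 h in siCTU2, 1.098 ± 0.228 h in siGL2, 0.918 ± 0.0183 h in mQ and 1.08 ± 0.0543 h in pQ cells.

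**Figure D2:**
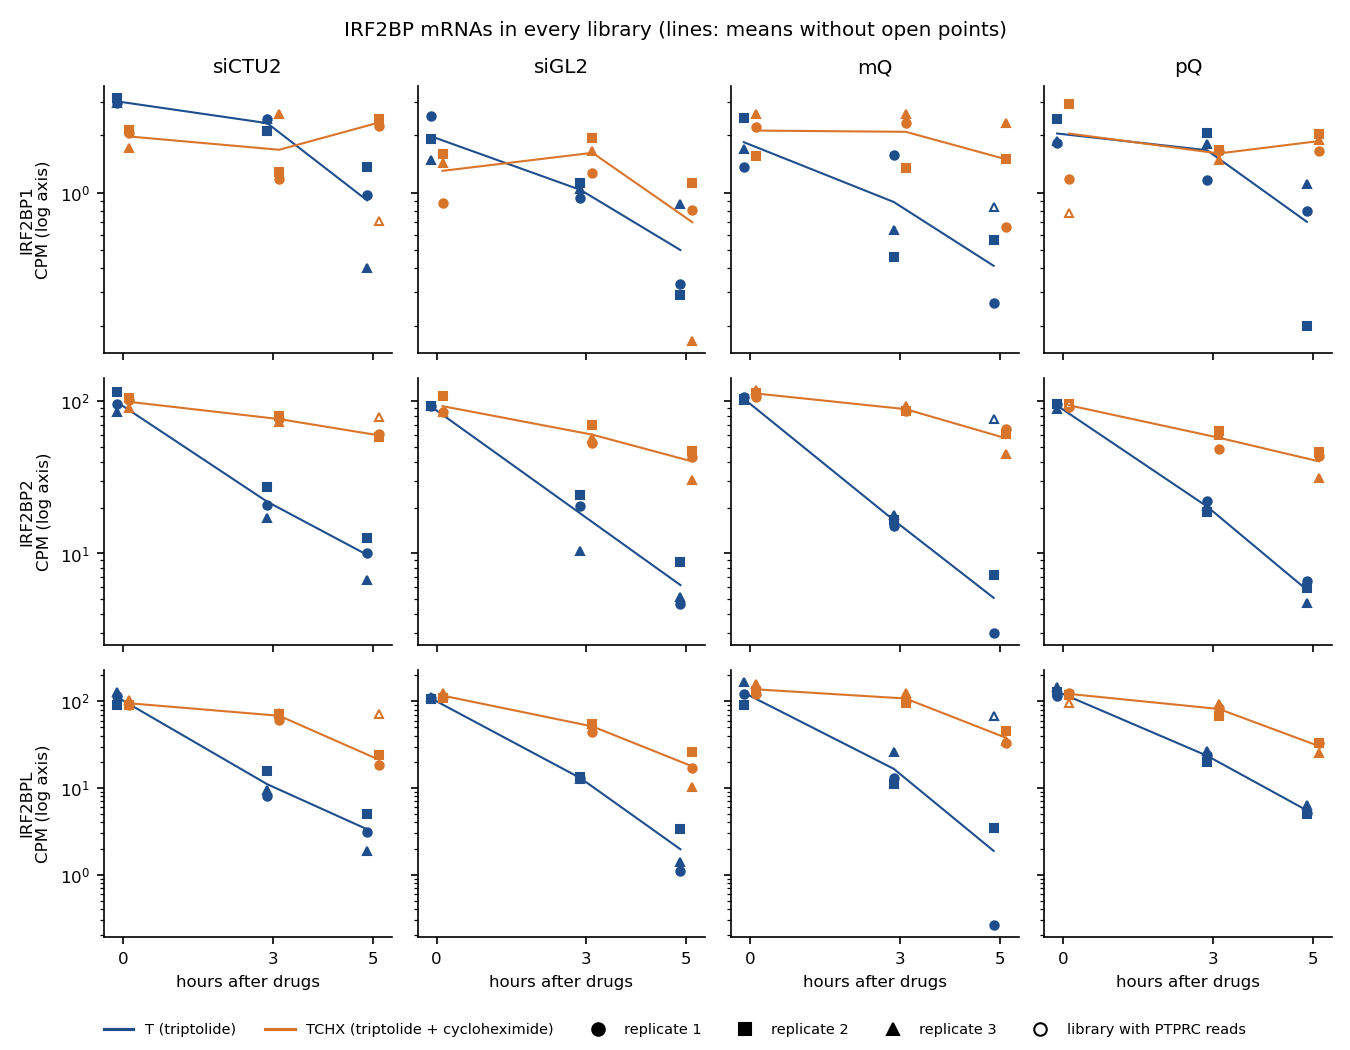
CPM (vertical axes, log scale) of IRF2BP1, IRF2BP2 and IRF2BPL at 0, 3 and 5 h after the drugs in each condition, T arm in blue and TCHX arm in orange. Points are single libraries, lines join means without the open points, and open points are the 3 libraries with PTPRC reads. The T and TCHX lines of IRF2BP2 and IRF2BPL part by 3 h in all 4 conditions, and the open mQ points at 5 h (76.8 and 68.7 CPM) lie far above the other 2 replicates.

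IRF2BPL was lost at least as quickly. In the T arm of siGL2 cells it was at 109, 106 and 113 CPM at 0 h, 12.97, 13.2 and 12.8 CPM at 3 h and 1.11, 3.38 and 1.40 CPM at 5 h. The siCTU2 values were 115, 91.3 and 129 CPM, 8.09, 15.7 and 9.42 CPM and 3.13, 5.02 and 1.87 CPM. Both siRNA groups lost about 1 order of magnitude by 3 h, with siCTU2 replicate 2 the highest of its group at 3 and 5 h. In pQ cells the values were 114, 128 and 148 CPM, 23.95, 20.1 and 26.8 CPM and 5.19, 4.97 and 6.38 CPM. In mQ cells they were 121, 91.04 and 166 CPM, 13.02, 11.1 and 25.9 CPM and 0.262, 3.49 and 68.7 CPM. The lowest of these is 2 counts, and the highest at 5 h is the library with PTPRC reads. Relative to the stable genes, 7.92 ± 5.01% was left at 3 h in siCTU2, 9.08 ± 0.530% in siGL2, 8.30 ± 0.939% in mQ and 12.2 ± 2.07% in pQ cells (SD, n = 3). By 5 h, 1.83, 4.29 and 0.742% was left in siCTU2, 0.772, 2.50 and 0.808% in siGL2, 0.161, 2.62 and 29.9% in mQ and 3.64, 2.71 and 2.84% in pQ cells. The apparent half-lives were 0.813 ± 0.203 h, 0.867 ± 0.0211 h, 0.835 ± 0.0379 h and 0.987 ± 0.0799 h in siCTU2, siGL2, mQ and pQ cells.

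Set beside each other in the same library, IRF2BPL was reduced further than IRF2BP2. The share left was lower for IRF2BPL in 11 of 12 replicates at 3 h and in 12 of 12 at 5 h in the T arm. The exception was siGL2 replicate 3, where 8.51% of IRF2BPL and 8.47% of IRF2BP2 were left. In the T arm the ratio of IRF2BPL to IRF2BP2 CPM was 1.18 ± 0.0402 with siGL2 at the start and 0.298 ± 0.0768 after 5 h, while pQ cells had 1.40 ± 0.240 and 0.990 ± 0.315 (SD, n = 3). The 5 h ratios were 0.238, 0.385 and 0.271 with siGL2 and 0.783, 0.833 and 1.35 in pQ cells. With siCTU2 the ratios were 1.21, 0.797 and 1.52 at 0 h and 0.312, 0.395 and 0.280 at 5 h. In mQ cells they were 1.14, 0.889 and 1.62, then 0.0870, 0.484 and 0.894, the last from the library with PTPRC reads. Between the times the pQ and mQ ratios overlapped, and the siGL2 and siCTU2 ratios did not.

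IRF2BP1 was the most persistent member, as far as its few counts allow. With siCTU2, the T arm had 28, 34 and 38 counts at 0 h, 27, 23 and 34 at 3 h and 9, 19 and 3 at 5 h. With siGL2 there were 22, 17 and 12 counts, then 9, 10 and 8 and 3, 3 and 10. The mQ libraries held 11, 26 and 15 counts, then 14, 3 and 6 and 2, 5 and 13, and the pQ libraries 17, 25 and 23, then 11, 18 and 18 and 10, 2 and 8. Single libraries thus rest on as few as 2 counts. The share left at 3 h was 56.2 ± 2.52% in siCTU2, 41.9 ± 12.6% in siGL2, 38.6 ± 36.99% in mQ and 53.8 ± 8.39% in pQ cells (SD, n = 3). In mQ cells the replicates gave 80.9, 12.3 and 22.6%, which is too wide a spread to place this condition among the others. In 12 of 12 replicates a larger share was left of IRF2BP1 than of IRF2BP2. The apparent half-lives had means from 2.50 to 4.07 h and single values from 0.992 to 9.81 h.

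These values can be placed among all genes measured in the same way, as a description. The median gene changed by -0.57, -0.49, -0.72 and -0.71 (log2, 3 h against 0 h, T arm) in siCTU2, siGL2, mQ and pQ cells, while IRF2BP2 changed by -2.63, -2.82, -3.26 and -2.79 and IRF2BPL by -3.82, -3.46, -3.59 and -3.05. A lower value than that of IRF2BP2 was found for 2.94, 3.07, 3.11 and 3.55% of genes, and a lower value than that of IRF2BPL for 0.692, 1.70, 2.38 and 2.78%. A mean at least 4-fold lower was reached by both in all 4 conditions, and by 5.96, 6.47, 9.35 and 7.75% of all genes. At 3 h, IRF2BP1 (-0.82, -1.26, -1.74 and -0.88) did not reach 4-fold in any condition and reached 2-fold in siGL2 and mQ cells. All genes reached 2-fold in 22.2, 19.8, 31.7 and 28.5% of cases. By 5 h the mean change of IRF2BP1 was -2.42, -2.45, -2.18 and -2.20, past 4-fold in each condition. Lower means at 5 h were found for 11.5, 9.43, 8.68 and 12.5% of genes. Not every replicate of IRF2BP1 reached 4-fold. The values were -2.11, -1.53 and -3.63 in siCTU2 and -3.15, -2.89 and -1.31 in siGL2 cells. They were -2.56, -2.57 and -1.41 in mQ and -1.46, -3.82 and -1.31 in pQ cells. The pQ value of -3.82 rests on 2 counts at 5 h. The mQ mean at 5 h includes the library with PTPRC reads. For reference, JUN, an immediate early gene, had 3.00 ± 1.16, 3.60 ± 0.486, 2.68 ± 1.64 and 4.61 ± 3.17% left at 3 h, and the transcription factor gene MYC had 5.62 ± 4.26, 2.57 ± 2.25, 2.68 ± 1.11 and 1.26 ± 1.11% (SD, n = 3).

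With translation blocked as well, much more IRF2BP2 mRNA remained. The TCHX arm of siGL2 cells held 85.4, 108 and 84.9 CPM at 0 h, 53.3, 69.7 and 57.6 CPM at 3 h and 43.3, 46.9 and 30.2 CPM at 5 h. The siCTU2 values were 101, 105 and 89.8 CPM, 75.7, 79.6 and 73.3 CPM and 61.03, 58.1 and 79.1 CPM, the 79.1 CPM at 5 h coming from the library that went against its label. All TCHX values at 3 h were above all T values at 3 h in both conditions. The pQ cells held 91.4, 96.2 and 95.2 CPM, 48.6, 63.9 and 59.97 CPM and 43.5, 46.1 and 31.1 CPM. The mQ cells held 107, 112 and 118 CPM, 86.7, 86.4 and 92.4 CPM and 65.7, 60.6 and 45.1 CPM. At 3 h the medium groups were separated between the arms in the same way. Relative to the stable genes, 61.9 ± 1.005% of the 0 h level was left at 3 h in siCTU2, 47.95 ± 4.18% in siGL2, 52.1 ± 3.03% in mQ and 41.9 ± 4.46% in pQ cells (SD, n = 3). By 5 h, 46.8, 38.2 and 68.0% was left in siCTU2 and 36.7, 33.5 and 20.3% in siGL2 cells. In mQ cells 44.1, 33.8 and 23.7% was left, and in pQ cells 34.9, 33.1 and 25.5%.

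More IRF2BPL mRNA also remained in the TCHX arm. In siGL2 cells its share left at 3 h lay below that of IRF2BP2 without overlap, while in siCTU2, mQ and pQ cells the shares of both members overlapped. In siGL2 cells the TCHX arm held 114, 111 and 126 CPM, 44.7, 54.4 and 55.1 CPM and 17.03, 25.9 and 10.4 CPM at 0, 3 and 5 h. In siCTU2 cells it held 90.8, 89.8 and 105 CPM, 60.5, 71.6 and 72.6 CPM and 18.5, 23.9 and 71.2 CPM. Again the highest siCTU2 value at 5 h (71.2 CPM) came from the library that went against its label. In pQ cells the values were 125, 119 and 95.2 CPM, 84.5, 68.5 and 92.4 CPM and 33.4, 32.7 and 25.3 CPM, and in mQ cells 122, 131 and 160 CPM, 101, 96.9 and 126 CPM and 33.4, 46.1 and 34.99 CPM. The share left at 3 h was 57.6 ± 6.11% in siCTU2, 32.7 ± 5.87% in siGL2, 51.7 ± 4.25% in mQ and 51.5 ± 16.4% in pQ cells (SD, n = 3). The pQ values were 46.7, 37.98 and 69.7%, and the highest of them has the library with PTPRC reads as its 0 h reference; without that replicate the mean was 42.4%. At 5 h, 15.8, 18.5 and 52.3% was left in siCTU2, 10.9, 18.03 and 4.70% in siGL2, 19.5, 22.03 and 13.5% in mQ and 19.6, 19.1 and 20.7% in pQ cells. The share left in the TCHX arm was lower for IRF2BPL than for IRF2BP2 in 7 of 12 replicates at 3 h and in 12 of 12 at 5 h.

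**Figure D3:**
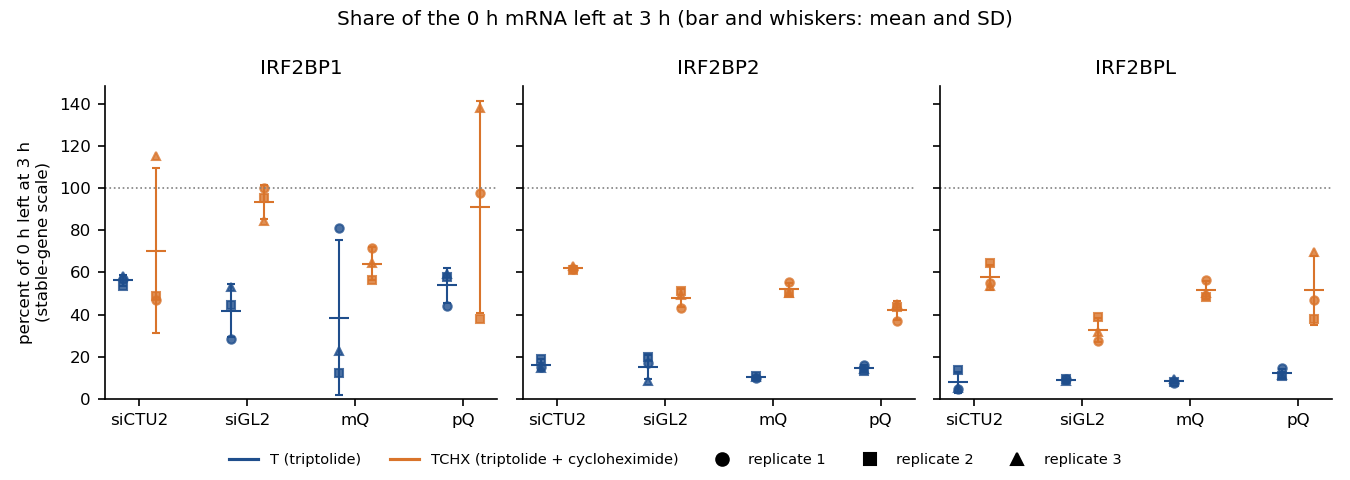
Percent of the 0 h level left at 3 h on the stable-gene scale (vertical axis, linear, from 0) in the 4 conditions, T arm in blue and TCHX arm in orange. Points are replicates, bars and whiskers are mean and SD (n = 3), and the dotted line marks the 0 h level. For IRF2BP2 and IRF2BPL every T value is at or below 19.7% and every TCHX value at or above 27.2%, whereas the arms of IRF2BP1 overlap in siCTU2, mQ and pQ cells.

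Even with translation blocked, IRF2BP2 and IRF2BPL were lost faster than the median gene. From 0 to 3 h in the TCHX arm the median gene changed by -0.33, -0.49, -0.61 and -0.57 (log2) in siCTU2, siGL2, mQ and pQ cells, IRF2BP2 by -0.69, -1.06, -0.94 and -1.26, and IRF2BPL by -0.80, -1.63, -0.95 and -1.004. Values below that of IRF2BP2 were found for 14.1, 10.1, 14.9 and 9.40% of genes. The apparent half-lives in this arm ranged from 2.41 to 4.34 h for IRF2BP2 and from 1.87 to 3.85 h for IRF2BPL as means of a condition. In the T arm the means of both members were at or below 1.15 h.

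The arms were then compared at the same time point as log2 TCHX over T. For IRF2BP2 this ratio at 3 h was 1.94, 1.58 and 2.10 in siCTU2, 1.35, 1.56 and 2.44 in siGL2, 2.56, 2.49 and 2.38 in mQ and 1.14, 1.71 and 1.56 in pQ cells. For IRF2BPL it was 2.99, 2.23 and 2.95 in siCTU2, 1.74, 2.06 and 2.08 in siGL2, 2.99, 3.23 and 2.30 in mQ and 1.82, 1.70 and 1.79 in pQ cells. All 24 values were above 1, that is above a 2-fold difference. The median over all genes was 0.14, 0.04, 0.17 and 0.06. Larger means than those of IRF2BP2 were found for 1.53, 2.38, 1.79 and 3.39% of genes, and larger means than those of IRF2BPL for 0.393, 1.85, 1.13 and 2.15%. A mean of at least 2-fold was reached by 6.98, 6.77, 10.9 and 6.7% of all genes.

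At 5 h the ratios were wider spread. For IRF2BP2 they were 2.65, 2.04 and 4.04 in siCTU2, 3.25, 2.36 and 2.37 in siGL2, 4.42, 3.08 and -1.08 in mQ and 2.58, 2.92 and 2.74 in pQ cells. For IRF2BPL they were 2.59, 2.09 and 5.68 in siCTU2, 3.93, 2.87 and 2.66 in siGL2, 6.71, 3.72 and -1.28 in mQ and 2.56, 2.69 and 2.01 in pQ cells. The negative mQ values and the highest siCTU2 values of both members each involve a library with PTPRC reads. Without them, the means of IRF2BP2 were 2.35 in siCTU2 and 3.75 in mQ cells, and those of IRF2BPL 2.34 and 5.22.

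For IRF2BP1 the arms were not separated in every condition. Its TCHX libraries had 11, 20 and 28 counts at 3 h in siCTU2, 12, 27 and 18 in siGL2, 25, 14 and 39 in mQ and 18, 20 and 17 in pQ cells. At 0 h there had been 23, 24 and 17, 8, 17 and 21, 19, 24 and 29 and 9, 29 and 10 counts, and at 5 h there were 22, 29 and 8, 12, 10 and 1, 7, 19 and 15 and 21, 27 and 15. The log2 ratio of TCHX over T at 3 h averaged -0.49 ± 0.53 in siCTU2, 0.59 ± 0.20 in siGL2, 1.35 ± 0.71 in mQ and -0.04 ± 0.47 in pQ cells (SD, n = 3). It was positive in all 3 replicates only in siGL2 and mQ cells. Only the mQ mean exceeded 2-fold at 3 h. At 5 h the ratios were 1.21, 0.67 and 1.17 in siCTU2 and 1.21, 1.73 and -2.14 in siGL2 cells. They were 1.18, 1.36 and 1.11 in mQ and 0.90, 3.04 and 0.78 in pQ cells. The negative value rests on 1 TCHX count, and replicate 3 of siCTU2 and of mQ involves a library with PTPRC reads.

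**Figure D4:**
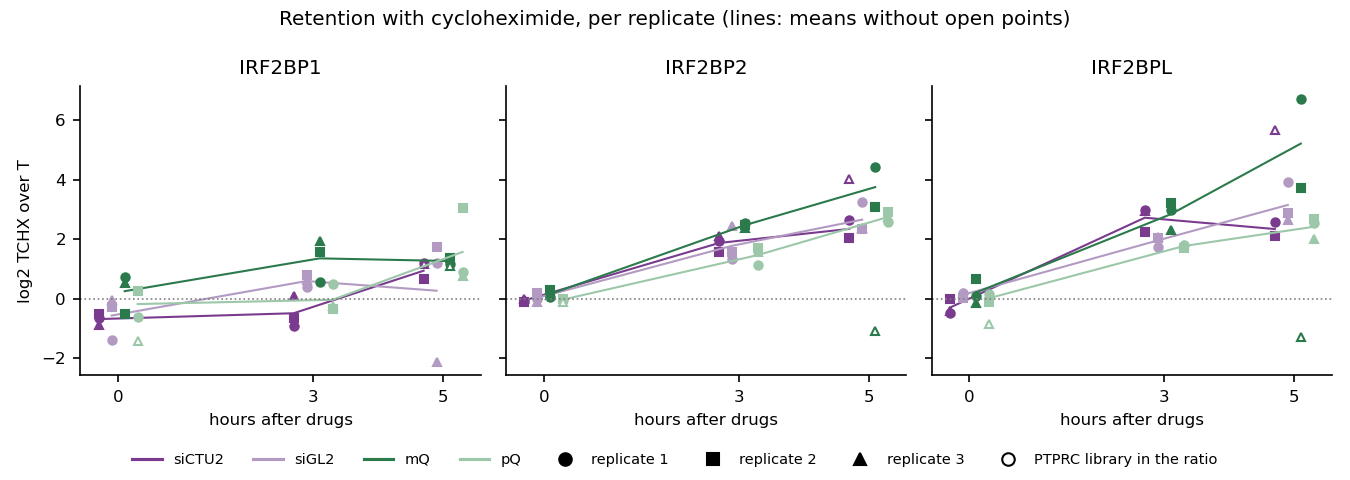
Log2 of TCHX over T (vertical axis, stable-gene scale) at 0, 3 and 5 h for each member, coloured by condition. Points are replicates, lines join means without the open points, and open points are ratios that include a library with PTPRC reads. At 0 h IRF2BP2 lies between -0.11 and 0.28 and IRF2BPL between -0.85 and 0.67, and at 3 h both lie between 1.14 and 3.23, while the IRF2BP1 replicates at 3 h lie on both sides of 0.

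Retention was set side by side between each treatment and its control. No test was made, since these ratios had served to choose the members. Differences by replicate number, here and in the next paragraph, subtract libraries of the same number. These numbers were not taken as pairs between conditions, so the differences are not repeats of 1 matched comparison. In mQ against pQ cells the difference in log2 TCHX over T at 3 h was 1.01 for IRF2BP2 (1.42, 0.79 and 0.81 in replicates 1, 2 and 3) and 1.07 for IRF2BPL (1.17, 1.54 and 0.51), and for the median gene it was 0.13. The mQ and pQ replicates did not overlap for either member, with mQ the higher. For IRF2BP1 the difference was 1.39 (0.07, 1.92 and 2.19 in replicates 1, 2 and 3). Its groups were barely apart, with a lowest mQ ratio of 0.56 and a highest pQ ratio of 0.50, and rest on few counts. The same order without overlap was found for 16.7% of all genes. At 5 h the mQ and pQ ratios overlapped for all 3 members (5.01% of genes above and 6.75% below). The differences were -0.36 for IRF2BP1, -0.61 for IRF2BP2 and 0.63 for IRF2BPL, with the mQ library with PTPRC reads included. In mQ replicates 1 and 2, IRF2BP2 and IRF2BPL lay above all pQ values, and IRF2BP1 lay among them. The T arm differed as well. Of the 0 h level at 3 h, 9.86, 10.8 and 10.5% of IRF2BP2 was left in mQ and 16.1, 13.3 and 14.1% in pQ cells, and 7.47, 8.12 and 9.32% of IRF2BPL in mQ and 14.6, 10.8 and 11.1% in pQ cells. All mQ values lay below all pQ values, as for 12.4% of all genes (4.23% had the opposite order), and IRF2BP1 overlapped. In the TCHX arm, the IRF2BP2 values in mQ were above those in pQ cells, an order shared by 3.53% of genes (6.17% had the opposite one), whereas those of IRF2BPL overlapped (56.5, 48.2 and 50.5% in mQ against 46.7, 37.98 and 69.7% in pQ cells). The pQ shares of that arm use the library with PTPRC reads as the 0 h reference of replicate 3, and without it the pQ mean was 40.3% for IRF2BP2 and 42.4% for IRF2BPL. The mQ values of IRF2BPL then also lay above the pQ values, so that the contrast with IRF2BP2 rests on this replicate.

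For siCTU2 against siGL2 cells the TCHX arm is given first. The log2 change from 0 to 3 h in that arm was higher in siCTU2 by 0.37 for IRF2BP2 and 0.83 for IRF2BPL. The median difference over all genes was 0.15 in the same direction. There IRF2BP2 was left at 3 h at 61.5, 61.2 and 63.1% in siCTU2 and 43.2, 51.2 and 49.5% in siGL2 cells, and IRF2BPL at 54.8, 64.6 and 53.4% and 27.2, 38.9 and 31.9%. The siCTU2 values were all above the siGL2 values for both members, as they were for 19% of all genes. The 0 h reference of IRF2BPL in this arm was lower in siCTU2 (1189 ± 87.4 scaled counts) than in siGL2 cells (1475 ± 87.0). Part of its difference in share therefore comes from 0 h. At 3 h its level was 684 ± 71.6 against 479 ± 59.8. For IRF2BP2 the 0 h means were 1238 ± 136 and 1171 ± 157 (SD, n = 3). In the T arm the 2 conditions overlapped for all 3 members, where 4.54% of genes had every siCTU2 value above and 8.82% every one below. The difference in log2 TCHX over T at 3 h was 0.09 for IRF2BP2 (0.60, 0.02 and -0.33 in replicates 1, 2 and 3) and 0.76 for IRF2BPL (1.25, 0.17 and 0.87), against 0.08 for the median gene. Only IRF2BPL was without overlap in the upward direction (12% of genes), and IRF2BP1 was without overlap in the other (difference -1.08; 3.84% of genes). At 5 h this ratio overlapped between siCTU2 and siGL2 for all 3 members (8.42% of genes above and 1.72% below). In the TCHX arm the change from 0 to 5 h was higher for IRF2BP2 in every siCTU2 replicate, as for 8.49% of genes, with the library that went against its label among them.

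The study summarises the effect of translation by the TDD index, in which the T level is subtracted from the TCHX level and the result is expressed relative to 0 h. The 0 h level used here was the mean of the T and TCHX libraries of the same replicate number. In pQ replicate 3 this mean includes the library with PTPRC reads. The index is built from the same libraries as the ratios above and adds no separate evidence. At 3 h it was 0.439 ± 0.0440 for IRF2BP2 in siCTU2, 0.337 ± 0.0662 in siGL2, 0.450 ± 0.0241 in mQ and 0.263 ± 0.0568 in pQ cells (SD, n = 3). For IRF2BPL it was 0.436 ± 0.0627, 0.254 ± 0.0485, 0.473 ± 0.0785 and 0.319 ± 0.0582 in the same order. The median gene had 0.0672, 0.0183, 0.0693 and 0.0244. Both members were higher in siCTU2 than in siGL2 (12.4% of genes) and in mQ than in pQ cells (15.7% of genes) without overlap of the replicates. Without pQ replicate 3 the pQ means were 0.2504 for IRF2BP2 and 0.302 for IRF2BPL. IRF2BP1 had -0.173 ± 0.204, 0.266 ± 0.120, 0.398 ± 0.156 and -0.0106 ± 0.211, with all siCTU2 values below all siGL2 values (3.16% of genes) and all mQ above all pQ values.

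IRF2BP2 and IRF2BPL had similar patterns over the group means, although their T arm ratio fell with time, without overlap in siCTU2 and siGL2 cells. Across the 24 group means (log2, each experiment centred on its own mean), their Pearson correlation was 0.981, and it was 0.979 without the 3 libraries with PTPRC reads. IRF2BP1 correlated less with IRF2BP2 (0.814) and IRF2BPL (0.824). These points share the drugs and the time course, so that high values are common. They also include the values by which the members were chosen, so the correlations are only a description. The 5 genes most like IRF2BP2 among 10312 candidates were ZSCAN21, USP42, IRX5, ZNF561 and MAP3K1 (0.987 to 0.988). Those most like IRF2BPL were UHRF2, PHF13, IRF2BP2 itself, RBM15 and KANSL2 (0.979 to 0.986). For IRF2BP1 they were UBE2J2, ASB6, GJC1, FOXD1 and CDCA4 (0.935 to 0.959). Without the 3 libraries, UBE2J2 kept the first rank for IRF2BP1, while ZSCAN21 went to rank 57 for IRF2BP2 and UHRF2 to rank 21 for IRF2BPL.

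Finally, 24 genes of IRFs and of factors that the family is known to act with were examined at 0 h in the T arm. In siCTU2 cells 3 of the 16 that could be tested rose, 5 fell and 8 did not pass, against 17.8% of all genes higher and 18.2% lower. Their median log2 fold change was 0.11, against 0.0048 over all genes. IRF1, an activator that IRF2 opposes, fell to 5.82 ± 0.976 from 14.7 ± 1.37 CPM (SD over 3 replicates, -1.35 on the log2 scale, edgeR adjusted p = 4.94e-05). The nuclear receptor corepressor NRIP1 fell from 44.6 ± 2.03 to 22.0 ± 0.475 CPM (-1.02, edgeR adjusted p = 1.78e-06), and VGLL4 from 58.3 ± 8.09 to 42.6 ± 9.40 CPM (-0.46, edgeR adjusted p = 0.0153). Among TEAD factors, TEAD2 rose from 6.55 ± 0.758 to 15.8 ± 2.58 CPM (1.27, edgeR adjusted p = 7.26e-05) and TEAD4 from 27.9 ± 2.75 to 39.6 ± 4.16 CPM (0.50, edgeR adjusted p = 0.00431). The deacetylase HDAC3 rose from 19.3 ± 2.62 to 29.1 ± 2.00 CPM (0.59, edgeR adjusted p = 0.00312). JDP2, an AP-1 repressor, had 0 to 1 counts per library in siCTU2 and 12 to 15 with siGL2. With 3 counts per library as the floor, that is at least 5.82-fold lower. IRF2 itself, the factor that gave the family its name, was at 28.0 ± 2.21 against 22.9 ± 1.26 CPM and did not pass (0.29, SE 0.13, edgeR adjusted p = 0.0892).

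In mQ cells 5 of the 16 tested genes rose, 3 fell and 8 did not pass, against 12.5% of all genes higher and 12.4% lower, with a median of 0.25 against 0.0098 over all genes. JDP2 rose to 18.9 ± 3.87 from 1.09 ± 0.368 CPM (SD over 3 replicates, 4.18 on the log2 scale, edgeR adjusted p = 4.51e-06). The calcineurin-regulated factors NFATC2 and NFATC1 rose with log2 fold changes of 0.66 (from 291 to 442 CPM, edgeR adjusted p = 0.00071) and 0.56 (from 21.2 to 30.0 CPM, edgeR adjusted p = 0.0184). In siCTU2 cells NFATC2 had fallen (-0.23, edgeR adjusted p = 0.0391) and NFATC1 did not pass (0.39, edgeR adjusted p = 0.0573). NRIP1 fell from 41.6 ± 6.13 to 22.5 ± 2.54 CPM (-0.84, edgeR adjusted p = 0.00285) and HDAC3 from 79.4 ± 5.52 to 52.0 ± 3.78 CPM (-0.55, edgeR adjusted p = 0.00531). FASTKD2, a mitochondrial RNA-binding protein gene, fell from 43.9 ± 3.34 to 27.2 ± 4.90 CPM (-0.64, edgeR adjusted p = 0.0103). VGLL4 rose from 51.4 ± 2.75 to 65.6 ± 8.04 CPM (0.40, edgeR adjusted p = 0.0323). TEAD4 (0.31, SE 0.18, edgeR adjusted p = 0.240) and IRF2 (0.31, SE 0.15, edgeR adjusted p = 0.168) did not pass. The list was drawn up with earlier results of these data known, and IRF4 to IRF9, NFATC4 and CBFA2T3 had too few counts to be tested in either comparison.

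**Figure D5:**
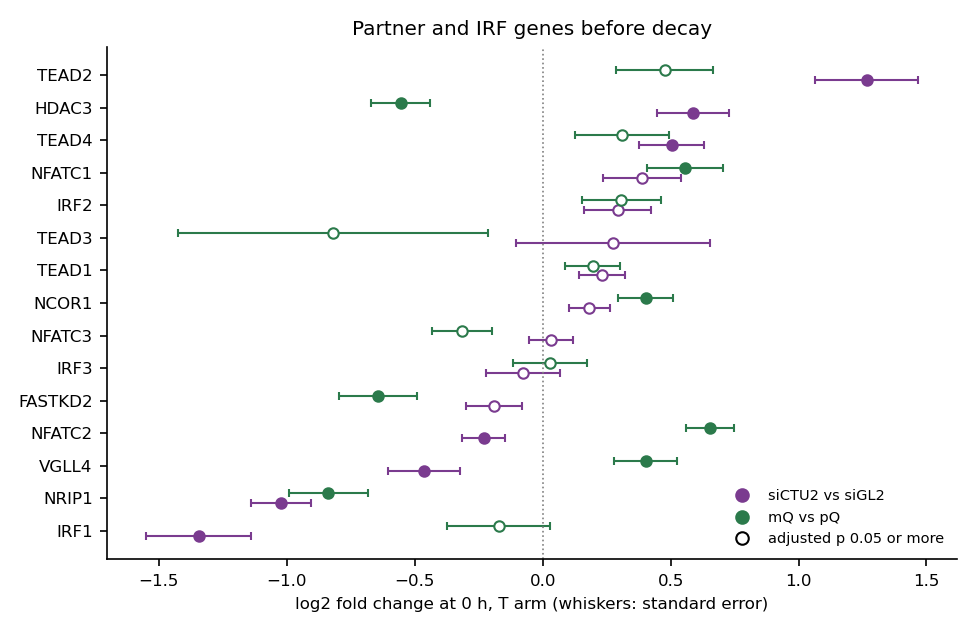
Log2 fold change at 0 h in the T arm (horizontal axis) of the 15 tested IRF and partner genes other than JDP2, siCTU2 against siGL2 in purple and mQ against pQ in green. Whiskers are standard errors (3 libraries per group), and open points did not pass. VGLL4 lies at -0.46 and 0.40, HDAC3 at 0.59 and -0.55 and NFATC2 at -0.23 and 0.66 in the 2 comparisons, while NRIP1 lies below 0 in both.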

How the data were processed

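Cytoplasmic RNA of A375 cells was measured in 72 libraries. The authors trimmed reads with fastp 0.20.1, aligned the forward reads to GRCh38.p13 with HISAT2 2.2.1 and counted them per gene with HTSeq 0.13.5, and the deposited values were raw counts. No step that collapses PCR copies and no strand setting is given in the sources used here. The authors state that an ERCC spike-in mix was added to the RNA before QuantSeq library preparation. In the count table, 0 rows named an ERCC spike-in. Totals were 5987692 to 15534331 counts, so that a gene near 10 counts carries large counting error. Groups followed the labels. Identical values were found in 0 pairs of libraries.

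CPM used library totals. Tests at 0 h used edgeR 4.0.16 (quasi-likelihood, TMM, filterByExpr, Benjamini-Hochberg, threshold 0.05, 6 libraries per fit, R 4.3.3). All 3 members passed the filter in each fit. For decay, counts were divided by size factors from stable genes (CPM over 0.2 at 0 h, at least 1.1 times that at 3 h or 5 h in both arms and all replicates), and log2 values used a prior count of 0.5. Genes with a mean scaled 0 h count of at least 10 were ranked, and those of at least 50 entered the search for similar patterns. Alternatives were DESeq2 1.42.0, other scalings, no filter, a replicate block, the other arm, 5 h, and leaving out each replicate.

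Between the T and TCHX arms at 0 h, the same replicate number was the best match in every condition. The correlations of deviations were 0.173, 0.264 and 0.312 in siCTU2 and 0.161, 0.248 and 0.308 in siGL2. They were 0.171, 0.137 and 0.296 in mQ and 0.0591, 0.196 and 0.206 in pQ, all of them low. Named genes were the members, JUN, MYC and CTU2 as references, the 5 genes most like each member, and, of the partner list, up to 6 with the smallest p per comparison plus IRF2, VGLL4 and TEAD4. The members and lists were chosen with earlier results of these data known.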

Additional observations from a re-analysis of the deposited data

How the results depend on the processing

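Between siCTU2 and siGL2 at 0 h the replicate numbers correlated at 0.0748, 0.155 and 0.264, and the same number was the best match. Between mQ and pQ they correlated at 0.109, -0.145 and -0.131, and numbers 2 and 3 matched each other crosswise. The numbers were not taken to pair the libraries of either comparison. With the replicate block IRF2BPL in mQ against pQ became -0.0268, and the count of genes between the T and TCHX arms became 211 in siCTU2, 5 in siGL2 and 2 in mQ. In siCTU2 against siGL2 the TCHX arm gave IRF2BPL -0.29. In mQ against pQ, IRF2BPL was -0.00081 with DESeq2 and -0.0043 without the filter. There the TCHX arm gave 810 genes and IRF2BP1 0.40, and, chosen after seeing the data, leaving out its pQ library with PTPRC reads gave IRF2BP1 0.0424 and IRF2BP2 0.29. Between the arms DESeq2 gave 63 genes in siCTU2 and 21 in mQ, and no filter gave 136 in siCTU2, 11 in siGL2 (IRF2BP2 0.0027) and 363 in mQ. The cause of these changes was not tested.

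Leaving out 1 replicate moved siCTU2 against siGL2 from -0.0428 to 0.18 for IRF2BP2 and from -0.0873 to 0.16 for IRF2BPL. In mQ against pQ it gave 1476 to 3319 genes (1638 without pQ replicate 1 and 1476 without pQ replicate 2), IRF2BP1 -0.36 to 0.0886 and IRF2BPL -0.25 to 0.20. Between the arms it gave 0 to 19 genes in siCTU2 (19 without TCHX replicate 2, 15 without T replicate 3 and 1 without T replicate 2), 0 to 100 in mQ (100 without T replicate 3 and 3 without T replicate 2) and 0 to 1 in pQ (without TCHX replicate 2 or 3). There IRF2BP2 ranged from -0.0735 to 0.15 in siCTU2, -0.12 to 0.0565 in siGL2 and -0.0053 to 0.0495 in pQ, IRF2BP1 from -0.0233 to 0.43 in mQ and -1.06 to 0.0296 in pQ, and IRF2BPL from -0.0792 to 0.37 in mQ.

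The log2 change from 0 to 3 h in the T arm depended on the scale and the time. With genes stable at both times (8 genes) it was -1.11 for IRF2BP1 and -2.93 for IRF2BP2 in siCTU2 and -3.92 for IRF2BPL in siGL2, and this scaling was not run in the medium experiment, which had 3 such genes. On CPM, IRF2BP1 had -0.38 in siCTU2 and -0.31 in pQ, IRF2BP2 -2.18 in siCTU2, -2.65 in mQ and -2.20 in pQ, and IRF2BPL -3.06 in siGL2, -2.97 in mQ and -2.46 in pQ. With TMM, IRF2BP1 had -0.28 in siCTU2, -0.77 in siGL2 and -0.19 in pQ, IRF2BP2 -2.08 in siCTU2, -2.53 in mQ and -2.08 in pQ, and IRF2BPL -2.95 in siGL2, -2.86 in mQ and -2.34 in pQ. At 5 h, IRF2BP1 had -2.42 in siCTU2, -2.45 in siGL2 and -2.20 in pQ. IRF2BP2 had -3.99 in siCTU2, -4.40 in siGL2, -3.60 in mQ (-4.95 from replicates 1 and 2) and -4.50 in pQ, and IRF2BPL -5.77, -6.38, -5.32 (-7.11) and -5.03.

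Log2 TCHX over T at 5 h was 1.02 (0.94 from replicates 1 and 2) in siCTU2, 0.27 in siGL2 and 1.57 in pQ for IRF2BP1. For IRF2BP2 it was 2.91 (2.35) in siCTU2, 2.66 in siGL2, 2.14 (3.75) in mQ and 2.75 in pQ, and at 3 h with TMM it was 2.31 in mQ. For IRF2BPL it was 3.45 in siCTU2 (2.34 from replicates 1 and 2, without the library that went against its label), 3.15 in siGL2 and 2.42 in pQ, and 5.22 from replicates 1 and 2 in mQ. Depth limits IRF2BP1 most, with 8 to 38 counts per library at 0 h.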
